A study of Temora longicornis with 12 samples.

Results

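Copepods that had been at 17 °C for almost the whole of a 5-day exposure were set against copepods that reached 17 °C on the last day. The animals were whole adults of Temora longicornis, a small planktonic crustacean. Sustained animals were brought to 17 °C over the first 24 h and stayed there until 120 h. Acute animals spent 4 days at 14 °C and were then moved to 17 °C for the last 24 h. Both groups were therefore at 17 °C when they were collected, and they differed in the temperature of the first 4 days. They also differed in how they were warmed, over 24 h in the sustained group and with no such ramp in the acute group. Duration and rate of warming cannot be told apart here. The comparison used 6 of the 12 libraries of the study, 3 sustained and 3 acute, chosen by treatment and not by any measured value. A recovery group (17 °C, then 14 °C for the last 24 h) and a control group (14 °C throughout), with 3 libraries each, contributed to the estimate of the spread and are given beside the 2 warmed groups. Each library came from 1 of 4 aerated vessels kept in the dark per group. The sources used here do not give the number, sex or stage of reproduction of the adults in a vessel.

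Temora longicornis is an abundant calanoid copepod of temperate coastal seas and a food of young fish. Like other crustaceans it cannot hold its body temperature, so the water sets the temperature of its tissues. In animals generally, the first hours of warming bring a fast response in which chaperone proteins that refold other proteins are made. Days of warmth bring slower adjustments of metabolism, membranes and reproduction. The deposited table carries assembly identifiers of the form written by the Trinity assembler and pairs none of them with a gene name. The members of those pathways could therefore not be picked out, and the transcripts below are given by identifier or by rank, with no function or position. In such an identifier the ending after _i numbers an isoform of an assembled gene.

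The total count per library was 29560309, 19559173 and 29096588 in the sustained libraries, against 19576555, 19362611 and 22697998 in the acute libraries. Levels below are in CPM, reads of a transcript as a share of its library, scaled to these totals after TMM normalisation, which corrects for differences in RNA composition. Spearman correlations of CPM across the 40943 tested transcripts were 0.93 to 0.945 among sustained libraries and 0.91 to 0.919 among acute libraries. Between the 2 groups they were 0.899 to 0.938. The ranges between and within groups overlapped, and the sustained libraries resembled each other somewhat more closely than the acute ones did. The most abundant transcript took 19.4%, 7.04% and 43.8% of the counts in the sustained libraries, against 0.00986%, 17.9% and 25.4% in the acute libraries. Control replicate 2 stood apart from the rest, with a median correlation of 0.816 with either warmed group. It is in neither warmed group and entered this comparison through the shared spread and the low-count filter, which passed 42640 transcripts without it. Leaving out any 1 sustained or acute library passed 42020 to 42751, so this rise was not particular to control replicate 2.

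No transcript differed between sustained and acute animals by edgeR's quasi-likelihood test, which called 0 of 40943 (0%) at an adjusted p under 0.05. The lowest adjusted p was 0.119. At an unadjusted p under 0.05 there were 2371 transcripts (5.79%), of which 1250 (3.05%) were higher and 1121 (2.74%) were lower in sustained animals. Without sustained replicate 2 there were 1369 such transcripts. With library totals alone as the scaling, the split was 266 higher and 1503 lower, and the median difference of all transcripts moved from -0.01 to -0.19 on the log2 scale. The 3 sustained libraries all lay above the 3 acute libraries for 2876 transcripts (7.02%) and all below them for 2872 (7.01%), which together are 14% of those tested. Other tools on the same counts made few calls. edgeR's exact test called 6 (0.0147%), of which 2 were higher (0.00488%) and 4 lower (0.00977%). DESeq2 called 25 of the 36140 to which it gave an adjusted p (0.0692%), 6 of them higher (0.0166%) and 19 lower (0.0526%). Within the sustained or the acute group, 10 of these 25 varied more than 10-fold after adding 0.2 CPM. In the quasi-likelihood test, 19 of the 25 had an unadjusted p under 0.05. Voom with library quality weights called 0 of 40943, with a lowest adjusted p of 0.422.

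Most differences were small and were not measured tightly. The median size of the fitted log2 difference, without regard to sign, was 0.28, and the central 90% of transcripts lay between -0.88 and 0.90. A difference of more than 2-fold was fitted for 1562 transcripts in the higher direction and for 1576 in the lower. For 37% of transcripts, both ends of the 95% interval were inside a 2-fold difference, and for 83.9% they were inside a 4-fold one. The median half-width of the interval was 0.88 on the log2 scale. The share inside 2-fold was 1.41% under 1 CPM, 40.1% from 1 to under 10 CPM, 81.7% from 10 to under 100 CPM and 83.3% at 100 CPM or more.

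**Figure D1:**
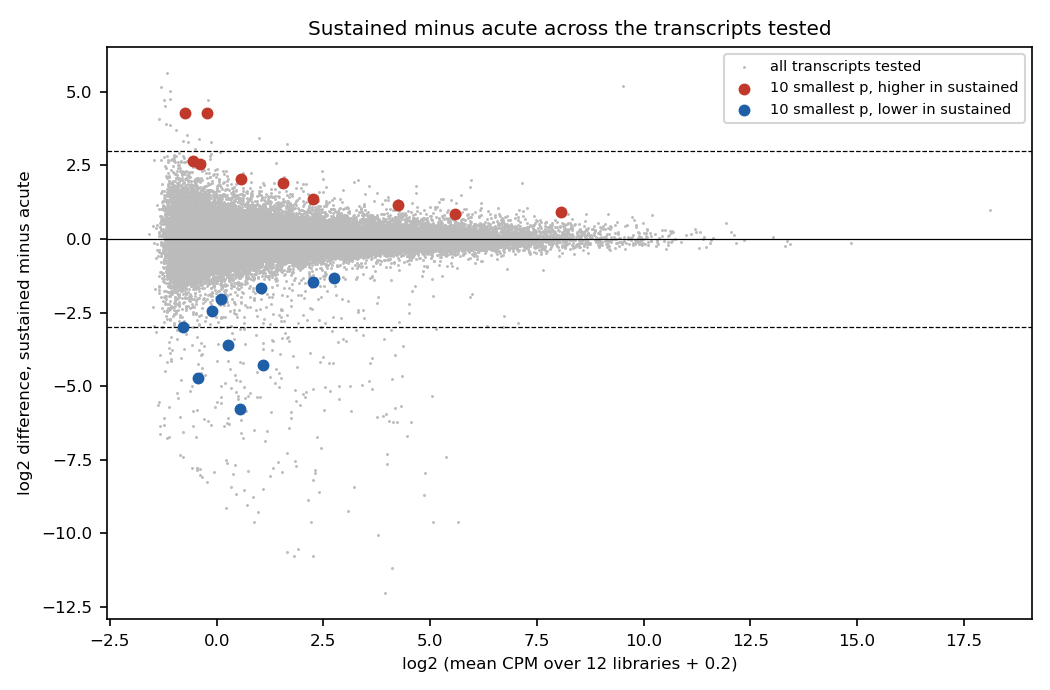
Fitted log2 difference (sustained minus acute, vertical axis) of each tested transcript against log2 (mean CPM over the 12 libraries + 0.2), with the 10 transcripts of smallest p in each direction in colour and dashed lines at 8-fold. Most transcripts lie near 0, with a median size of 0.28, and the downward tail beyond 8-fold holds 229 transcripts against 22 in the upward tail.

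The spread of the differences narrowed with abundance. Among 13011 transcripts with a mean under 1 CPM, 16.8% were fitted with more than a 2-fold difference. The share was 4.46% of 18975 transcripts from 1 to under 10 CPM, 1.26% of 7828 from 10 to under 100 CPM and 0.709% of 1129 at 100 CPM or more. Replicates were also closer at high levels. The median SD of log2 CPM in the lowest class was 0.30 among sustained libraries and 0.35 among acute libraries, and in the highest class it was 0.15 among sustained libraries and 0.18 among acute libraries. In every class fewer than 50% of transcripts, between 42% and 44.3%, had the wider spread in the sustained group.

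In the highest class, 65 transcripts were higher and 19 lower in sustained animals at an unadjusted p under 0.05, and none had an adjusted p under 0.05. Together they were 7.44% of the class, against 5.79% of all tested transcripts (3.05% higher and 2.74% lower). This lean towards higher values did not hold under every scaling, since library totals alone gave 3 higher and 18 lower. The split was 49 and 28 without sustained replicate 1, 13 and 5 without sustained replicate 2, 68 and 10 without sustained replicate 3, 22 and 13 without acute replicate 1, 19 and 7 without acute replicate 2, and 107 and 26 without acute replicate 3. The 3 abundant transcripts with the smallest p in each direction differed by 0.52 to 1.05 on the log2 scale, without regard to sign, and none was called by the quasi-likelihood test, the exact test or DESeq2. The first of the higher ones stood at 302, 457 and 319 CPM in the sustained libraries, against 184, 154 and 236 CPM in the acute libraries. Its groups did not overlap, and the log2 difference was 0.91 ± 0.19 (SE, n = 3 each; edgeR adjusted p = 0.84). The first of the lower ones stood at 257, 170 and 197 CPM in the sustained libraries, against 343, 317 and 275 CPM in the acute libraries. Here too the groups did not overlap, and the log2 difference was -0.58 ± 0.17 (SE, n = 3 each; edgeR adjusted p = 0.84).

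The transcript with the smallest p of all was low in sustained animals. TRINITY_DN168648_c1_g1_i1 was at 0.219, 0.252 and 0.0898 CPM in the sustained libraries, against 6.38, 2.01 and 2.98 CPM in the acute libraries. These levels rest on counts of 7, 6 and 2 in the sustained libraries, against 167, 44 and 68 in the acute libraries. The recovery libraries had 0.938, 2.14 and 2.23 CPM and the control libraries 1.87, 2.76 and 1.21 CPM, so each sustained library lay below all 9 others. The log2 difference was -4.28 ± 0.59 (SE, n = 3 each), with a 95% interval of -5.54 to -3.03 and an edgeR adjusted p of 0.12, above the threshold of 0.05. The adjusted p was 8e-07 in edgeR's exact test, 2e-07 in DESeq2 and 0.58 with voom, and 0.045 in the quasi-likelihood fit without control replicate 2. Over all 20 alternative settings it ran from 2e-07 to 1, the highest without sustained replicate 2, while the log2 difference stayed between -4.58 and -3.69. A sister isoform of the same assembled gene was too rare to be tested, with a mean of 0.0638 CPM in sustained animals and 0.796 CPM in acute animals. Summed over both isoforms, the gene stood at 0.281, 0.337 and 0.135 CPM in the sustained libraries, against 8.32, 2.05 and 3.37 CPM in the acute libraries. The log2 difference of the sum was -4.15 ± 0.59 (SE), with an edgeR adjusted p of 0.19 over 32886 genes.

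A different pattern, in which the acute libraries were the ones apart, was seen in TRINITY_DN191068_c4_g2_i10, the third transcript by p in the lower direction. It was at 1.19, 1.18 and 1.21 CPM in the sustained libraries, against 4.43, 3.83 and 2.98 CPM in the acute libraries. Recovery libraries had 1.18, 1.63 and 1.48 CPM and control libraries 1.08, 1.05 and 1.13 CPM. Each acute library was thus above all 9 others, and the sustained libraries lay within the range of the recovery and control libraries. The log2 difference was -1.65 ± 0.29 (SE, n = 3 each; edgeR adjusted p = 0.5). It rests on counts of 38, 28 and 27 in the sustained libraries and 116, 84 and 68 in the acute libraries. edgeR's exact test gave it an adjusted p of 0.012 and DESeq2 one of 0.0013, within a range of 0.0013 to 1 over the 20 alternatives. The other tested isoform of its gene averaged 1.45 CPM in sustained animals and 1.01 CPM in acute animals, a log2 difference of 0.51 ± 0.49 (SE; unadjusted p = 0.32).

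Other transcripts low in sustained animals are given by their rank in p. The second was at 0.125, 0.21 and 0.224 CPM in the sustained libraries, against 4.05, 0.822 and 1.84 CPM in the acute libraries, and was below all 9 others in the sustained libraries. The fourth had 0.125, 0.084 and 0.0898 CPM in the sustained libraries, against 0.84, 0.776 and 0.921 CPM in the acute libraries. Recovery and control libraries, at 0.171 to 0.405 CPM, lay between the 2 groups for this transcript. The fifth had 1.81, 2.56 and 1.89 CPM in the sustained libraries, against 5.27, 6.12 and 5.7 CPM in the acute libraries. For it the acute libraries lay within the range of the recovery and control libraries, 3.78 to 7.7 CPM, and the sustained libraries below that range. The eighth had 5.32, 3.57 and 3.46 CPM in the sustained libraries, against 11.3, 12.2 and 7.5 CPM in the acute libraries, which were above all 9 others. The sixth, with the largest fitted difference of the 10 at -5.77 ± 1.20 (SE, n = 3 each) on the log2 scale, had 0.0313, 0 and 0.0898 CPM in the sustained libraries, against 2.75, 0.867 and 3.51 CPM in the acute libraries. Recovery libraries had 0.036 to 0.345 CPM and control libraries 3.27, 3.97 and 0.0778 CPM, so neither warmed group lay outside the range of the other 9. None of these 5 passed edgeR's quasi-likelihood test, with adjusted p-values of 0.5, 0.5, 0.81, 0.84 and 0.81 in the order given. Each was called by another tool. edgeR's exact test gave an adjusted p of 0.0052 for the second and 0.016 for the fourth, and DESeq2 one of 0.00077 for the second, 0.01 for the fifth, 0.0065 for the sixth and 0.034 for the eighth. Over the alternatives the adjusted p of each reached 1.

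Among transcripts higher in sustained animals, the smallest p belonged to TRINITY_DN166838_c0_g1_i1. It was at 0.751, 2.64 and 1.89 CPM in the sustained libraries, against 0.115, 0.0456 and 0.0877 CPM in the acute libraries, with counts of 24, 63 and 42 in sustained and 3, 1 and 2 in acute. Recovery libraries had 0.247, 0.257 and 0.252 CPM and control libraries 0.199, 0.162 and 1.25 CPM. The acute libraries were below all 9 others, and control replicate 3 lay within the sustained range. The log2 difference was 4.28 ± 0.77 (SE, n = 3 each; edgeR adjusted p = 0.5). The exact test gave an adjusted p of 0.012 and DESeq2 one of 0.0065, within a range of 0.0065 to 1 over the 20 alternatives.

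Of the next transcripts in the higher direction, the second was at 24.3, 31.9 and 24.3 CPM in the sustained libraries, against 12.3, 11.8 and 11.8 CPM in the acute libraries, a log2 difference of 1.16 ± 0.22 (SE, n = 3 each; edgeR adjusted p = 0.76). Both of its sister isoforms were also fitted higher in sustained animals, by 0.56 ± 0.53 and 0.63 ± 0.41 (SE) on the log2 scale, with edgeR unadjusted p-values of 0.32 and 0.15. The third had 3.22, 5.96 and 3.99 CPM in the sustained libraries, against 0.878, 0.867 and 1.75 CPM in the acute libraries. Its log2 difference was 1.91 ± 0.37 (SE, n = 3 each; edgeR adjusted p = 0.76). DESeq2 gave an adjusted p of 0.014 for the second and 0.0051 for the third. edgeR's exact test gave an adjusted p of 0.13 for the second and 0.033 for the third, and voom one of 0.51 for both. In the third, as in the second, the acute libraries lay below all 9 others. The fourth had 0.407, 0.756 and 1.71 CPM in the sustained libraries, against 0, 0.0913 and 0.0439 CPM in the acute libraries, a log2 difference of 4.29 ± 0.96 (SE, n = 3 each; edgeR adjusted p = 0.81). Recovery libraries were as low as the acute ones for it, at 0 to 0.0857 CPM, and control libraries ran from 0.081 to 1.08 CPM. The seventh had 55, 61.8 and 49.7 CPM in the sustained libraries, against 32, 25.5 and 34.1 CPM in the acute libraries. The control libraries of this transcript, at 54.1, 79.5 and 60.9 CPM, were all above the acute range and reached above the sustained range. Its log2 difference was 0.86 ± 0.18 (SE, n = 3 each; edgeR adjusted p = 0.84). Neither the exact test nor DESeq2 called the fourth or the seventh.

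**Figure D2:**
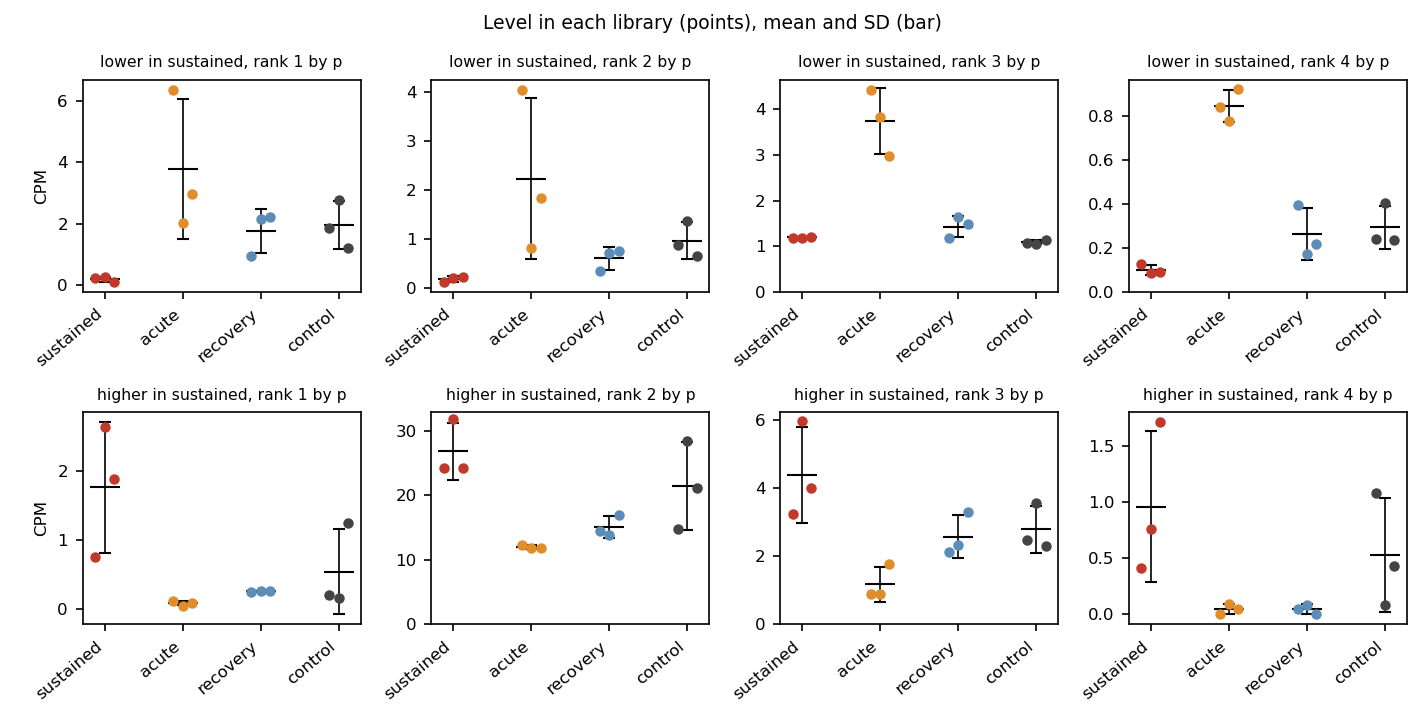
Level in CPM (vertical axes) of the 4 transcripts with the smallest p in each direction, by group, with 1 point per library and bars for the mean and SD of 3 libraries. In every panel the 3 sustained points and the 3 acute points do not overlap, and in several panels only 1 of the 2 groups lies outside the recovery and control points.

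Over the 10 transcripts with the smallest p in each direction, the sustained and acute groups did not overlap in any, which the choice by p makes likely. The sustained libraries lay outside the range of the other 9 in 2 of the 10 higher transcripts and 7 of the 10 lower ones. The acute libraries did so in 4 of the 10 higher and 3 of the 10 lower. Over all tested transcripts these shares were 0.733% for sustained and 0.906% for acute, and the selection used the same libraries, so nothing is read from the difference. The fitted log2 differences of the 20 ran from 0.86 to 5.77 in size, with a median of 2.24. edgeR's exact test called 6 of them and DESeq2 called 10. All 20 kept their direction under every alternative in which they were tested. With groups that do not overlap, leaving out a library could hardly reverse a direction, so nothing is read from this.

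The same history, 4 days at 17 °C against 4 days at 14 °C, also separates the recovery and control groups, both of which ended at 14 °C and share no library with the warmed pair. The recovery minus control difference had the same sign as the sustained minus acute difference in 4 of the 10 higher and 8 of the 10 lower transcripts, against 52.7% of all 40943. For TRINITY_DN168648_c1_g1_i1 the recovery minus control difference was -0.08 ± 0.48 (SE) and for TRINITY_DN166838_c0_g1_i1 it was -1.19 ± 0.72 (SE). For TRINITY_DN191068_c4_g2_i10 it was 0.39 ± 0.31 (SE), opposite in sign to its sustained minus acute difference. Whether the difference depended on the temperature of the last day was tested as an interaction. It also sets the groups switched in the last 24 h against those that were not, so these readings cannot be told apart. edgeR's quasi-likelihood test called 0 of 40943 (0%), with a lowest adjusted p of 0.507 and 1348 transcripts (3.29%) at an unadjusted p under 0.05.

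In the fit of all 12 libraries, most of the largest fitted differences lay in one direction. A difference of more than 8-fold was fitted for 229 transcripts (0.559%) in the lower direction and for 22 (0.0537%) in the higher, with none called by the quasi-likelihood test. These transcripts were picked out after their values were seen. The CPM of the 229 lower ones summed to 55.7, 49.2 and 90 in the sustained libraries, against 2550, 178 and 3910 in the acute libraries. The high values belonged to acute replicates 1 and 3, while acute replicate 2 was closer to the sustained libraries than to the other acute ones. In the recovery libraries the sums were 89.6, 1510 and 84.6 CPM, and in the control libraries 719, 3680 and 59.8 CPM. High libraries were thus found at both temperatures and in 3 of the 4 groups. The 3 sustained libraries were all among the low ones, as were recovery replicates 1 and 3 and control replicate 3. Low sustained and high acute sums follow from how the transcripts were chosen, so nothing is read from them.

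The 229 transcripts varied together from library to library. Their pairwise Pearson correlation over the 12 libraries had a median of 0.78, a description of a set chosen for shared low values in sustained animals. In 215 of the 229, a single acute library held more than 50% of the acute sum. Where acute replicate 2 was near 0, the higher of acute replicates 1 and 3 must hold about 50% or more, so nothing is read from that count. The highest acute library was replicate 3 in 175, replicate 1 in 48 and replicate 2 in 6. There were 117 at 1 CPM or more in acute replicates 1 and 3 and under 1 CPM in acute replicate 2. Another 32 were at 1 CPM or more in all 3 acute libraries. Transcripts at 1 CPM or more numbered 16, 11 and 23 in the sustained libraries, against 157, 38 and 203 in the acute libraries. Of the 229, 213 reached 1 CPM in at least 1 recovery or control library. The groups did not overlap for 86, against 14% of all tested transcripts, a count that the choice by fold also affects. Of the 229, 40 were at 0 in every sustained library, so that their fitted fold change depends on the prior count of the fit. The 229 came from 187 assembled genes. In RNA from whole animals, fewer cells of a type and less RNA per cell cannot be told apart. The table names no genes, so markers of a tissue or of another organism could not be examined, and their part in this result was not tested.

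**Figure D3:**
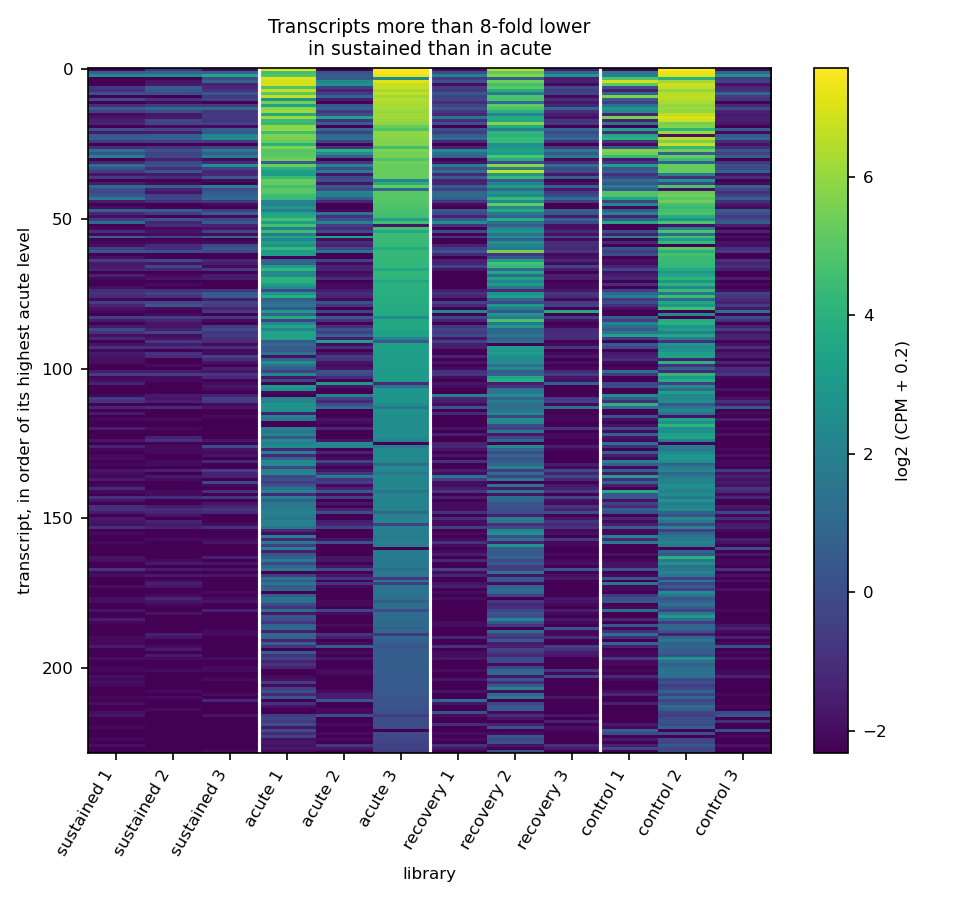
Heat map of log2 (CPM + 0.2) for the 229 transcripts fitted more than 8-fold lower in sustained than in acute animals, with a line for each transcript in order of its highest acute level and a column for each library. The 3 sustained libraries sum to between 49.2 and 90 CPM, whereas acute replicates 1 and 3, recovery replicate 2 and control replicate 2 sum to between 1510 and 3910 CPM.

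The balance between the tails depended on which library was left out and on the low-count filter. Over transcripts that were also tested with all libraries, leaving out acute replicate 3 gave 180 more than 8-fold lower and 110 more than 8-fold higher, with 164 of the original 229 among the lower ones. Without acute replicate 1 the counts were 240 lower and 88 higher, and without acute replicate 2 they were 276 and 74. Leaving out sustained libraries in turn gave 259 to 305 lower and 27 to 29 higher. More transcripts passed the low-count filter in these fits, and with those included the counts ran from 227 to 395 lower and from 52 to 194 higher. With only the 6 sustained and acute libraries, 76 of the 229 passed the low-count filter. All 76 were more than 8-fold lower, against 4 higher. The fitted difference rests on the same 6 libraries in both fits, so nothing is read from the 76 staying beyond 8-fold. In the main fit the filter also counted the recovery and control libraries. With no low-count filter the counts were 405 lower and 156 higher, of which 230 and 22 were among the transcripts of the main fit. Voom gave 159 lower and 44 higher. DESeq2 called 16 of the 229 (0.0692% over the 36140 transcripts to which it gave an adjusted p). edgeR's exact test called 2 (0.0147% over all tested), and 143 had an unadjusted p under 0.05 in the quasi-likelihood test (5.79% over all tested). The 229 were chosen by the size of the same difference, so nothing is read from these counts.

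In the opposite tail, the 22 transcripts summed to 572, 4600 and 1650 CPM in the sustained libraries, against 25, 114 and 48.8 CPM in the acute libraries. Nearly all of that sum was TRINITY_DN173294_c3_g2_i1, which is described here because of its level. It was at 560, 4580 and 1620 CPM in the sustained libraries, against 22.2, 113 and 47.3 CPM in the acute libraries. Its groups were separated by several fold, yet the sustained libraries themselves differed several-fold. The recovery libraries had 180, 215 and 184 CPM and the control libraries 1080, 47.6 and 165 CPM, so 1 control library lay within the sustained range. The log2 difference was 5.21 ± 1.35 (SE, n = 3 each; edgeR adjusted p = 0.84, unadjusted p = 0.0045). DESeq2 gave an adjusted p of 0.003, and the range over the 20 alternatives was 0.003 to 1.

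The other tested isoform of the same assembled gene did not share this pattern. It was at 5.04, 6.97 and 16.3 CPM in the sustained libraries, against 78.1, 9.45 and 9.08 CPM in the acute libraries, and its groups overlapped. Its share of the gene's counts was 0.681% ± 0.462 (SD, n = 3) in sustained animals and 33.9% ± 38.3 (SD, n = 3) in acute animals, where acute replicate 1 alone had 77.8%. Recovery animals had 5.76% ± 3.51 and control animals 12.6% ± 4.77 (SD, n = 3 each). The difference in isoform shares had an unadjusted Simes p of 0.0006 in edgeR's test of isoform usage and an adjusted p of 1. Reads of near-identical isoforms may be split or dropped by the counting, so shares within a gene are uncertain.

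**Figure D4:**
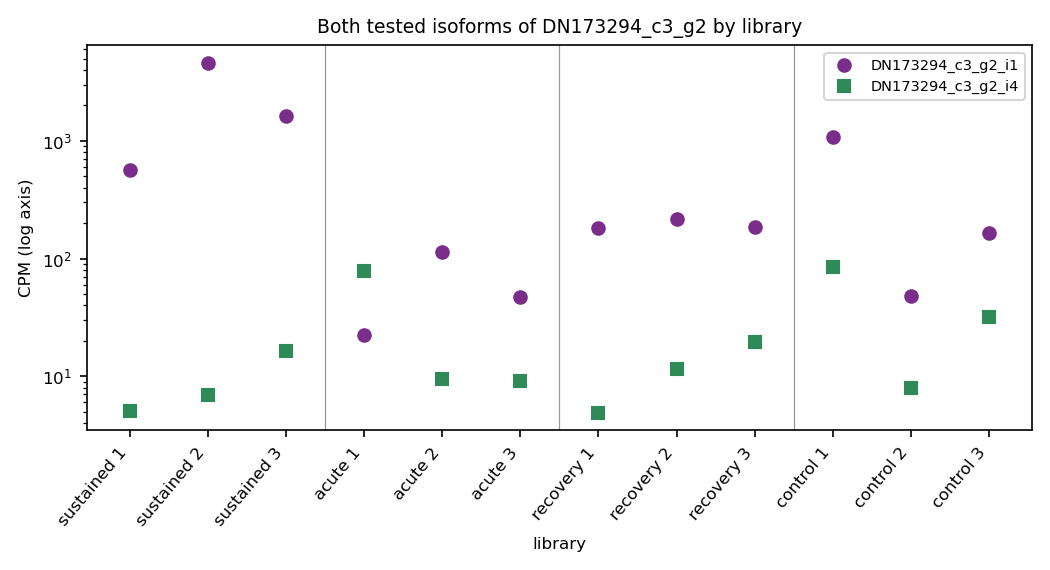
Level in CPM (vertical axis, log scale) of the 2 tested isoforms of TRINITY_DN173294_c3_g2, circles for i1 and squares for i4, in each library. The first isoform is at 560 to 4580 CPM in the sustained libraries and 22.2 to 113 CPM in the acute libraries, whereas the groups overlap for the second.

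No assembled gene passed the test of isoform usage. Of 6637 genes with at least 2 tested isoforms, edgeR called 0 (0%) at an adjusted p under 0.05, the lowest being 1, and 108 (1.63%) had an unadjusted Simes p under 0.05. The gene with the smallest p had 3 isoforms, the rarest of which made up 9.12% ± 7.36 (SD, n = 3) of its counts in sustained animals and 1.75% ± 1.53 (SD, n = 3) in acute animals. The sustained shares were 6.93%, 17.3% and 3.11%, against acute shares of 1.22%, 0.554% and 3.48%, so the groups overlapped. In the third gene a minor isoform held 0.186% ± 0.0118 (SD, n = 3) of the counts in sustained animals and 0.951% ± 0.575 (SD, n = 3) in acute animals. That isoform rests on counts of 3, 2 and 2 in the sustained libraries and 20, 11 and 5 in the acute libraries.

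Summing isoforms did not bring out further differences. Of 32886 assembled genes tested on summed counts, edgeR's quasi-likelihood test called 0 (0%), with 1054 (3.21%) higher and 858 (2.61%) lower in sustained animals at an unadjusted p under 0.05. The lowest adjusted p, 0.187, was that of the gene of TRINITY_DN168648_c1_g1_i1 described above. DESeq2 called 21 genes and the exact test 5.

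Detection in one group only was rare and rested on few reads. There were 27 transcripts with a count of 0 in every acute library and at least 1 in every sustained library, and 21 of the reverse kind, of 44985 in the table. Among the 27, the highest lowest count was 6, in a pair of transcripts. The first of them had counts of 10, 10 and 6 in the sustained libraries and 0 in each acute library, which was at least 7.87-fold higher in sustained animals against a floor of 3 counts over the group. Its counts were 1, 4 and 16 in the recovery libraries and 0, 2 and 7 in the control libraries, and it was too rare to be tested. Among the 21, the highest lowest count was 9, in a transcript with 0 in each sustained library and 72, 9 and 9 in the acute libraries. It was at least 33-fold lower in sustained animals by the same floor, with an edgeR adjusted p of 0.84. It also had a count of 0 in 1 recovery and 1 control library, and 26 and 27 in others, so its absence was not particular to sustained animals. A count of 0 over a group allows up to 0.0423 CPM in the acute libraries and 0.0384 CPM in the sustained libraries, counting error only.

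**Figure D5:**
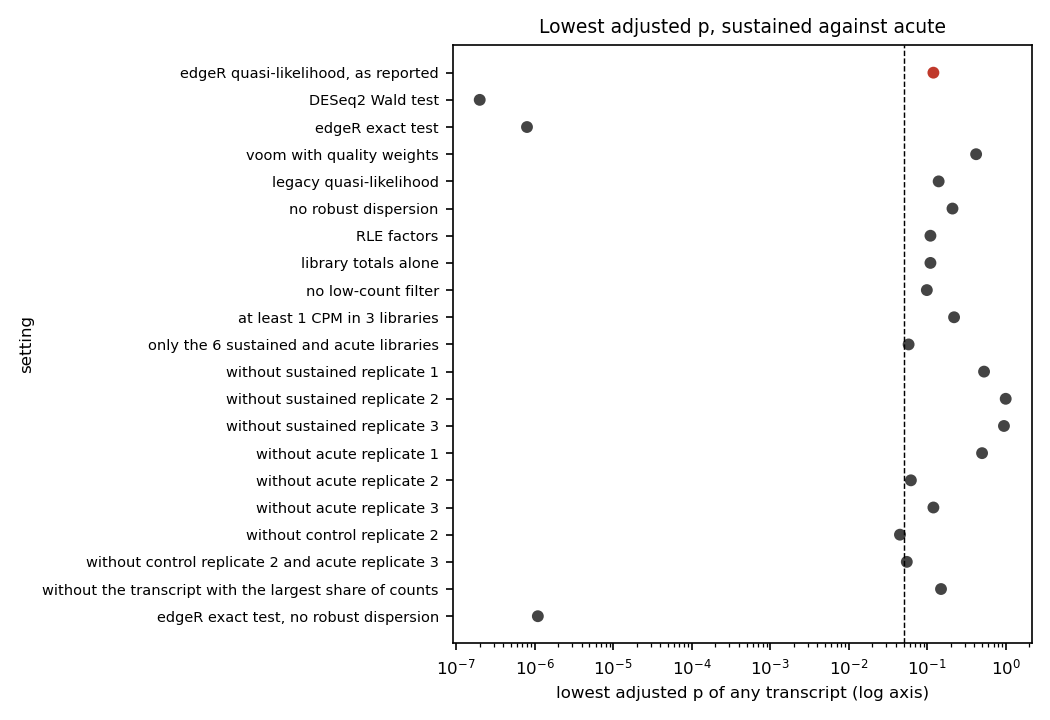
Lowest adjusted p over all transcripts for the sustained minus acute difference (horizontal axis, log scale) under each setting, with a dashed line at the threshold of 0.05. The quasi-likelihood test as reported is at 0.119, and DESeq2 and edgeR's exact tests and the fit without control replicate 2 lie below the threshold.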

How the data were processed

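Per the labels' protocols, total RNA of whole adults was made into stranded poly(A)-type mRNA libraries and sequenced as paired-end reads. Tools listed in the submitters' processing notes are edgeR, HTSeq 0.6.1, TopHat2 2.1.1 and Trim Galore 0.4.1, and no role is stated for any. The authors deposited raw counts per assembled transcript for 12 libraries. How the transcripts were assembled, annotated and counted is not given in the sources used here.

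The treatment label gave each library its group. The replicates are vessels, and replicate numbers follow the order of deposit. None was a repeat of another, since pairs of replicates had a chi-square of 22.7 to 197 for each degree of freedom. Sustained minus acute was tested on the deposited counts in edgeR 4.0.16 (R 4.3.3, quasi-likelihood, robust, not legacy), with TMM factors of 0.634 to 1.34. A single fit of all 4 groups left 8 residual degrees of freedom. The filter kept transcripts by edgeR's defaults, a count of 10 in enough libraries and a total of 15. Typical variation between replicates was 37% (biological coefficient of variation). Adjusted p-values follow Benjamini and Hochberg, with calls under 0.05. Each SE was worked out from the difference and its F statistic and is approximate. The prior count was 0.125, and SDs of log2 CPM were taken after adding 0.5 CPM. Genes were summed by identifier without the isoform ending, and isoform usage was tested with diffSpliceDGE. P-values measure the spread between vessels.

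Alternatives were DESeq2 1.42.0, the exact test, voom with quality weights (limma 3.58.1), the legacy setting, no robust dispersion, RLE factors, library totals alone, no filter, at least 1 CPM in 3 libraries, only the 6 libraries compared, each sustained and acute library left out in turn, control replicate 2 left out with or without acute replicate 3, and the most abundant transcript left out. The exact test without robust dispersion and the 8-fold tails were added after seeing the data. Transcript calls by the quasi-likelihood test, the exact test, DESeq2 and voom were tried on simulated data, as were quasi-likelihood calls of genes and of isoform usage. The intervals, the interaction, the counts of groups not overlapping, the 8-fold tails and the detection floors were not. The transcripts given are the 10 with the smallest p in each direction, those called by the exact test, the first 3 in each direction at 100 CPM or more, the first 2 genes in each direction, the first 3 genes by isoform usage and the first 3 detected in 1 group only. The 8-fold tails and TRINITY_DN173294_c3_g2_i1 as a level were chosen after their values were seen. The comparison, lists and rules were chosen with earlier results of these data known. Planned lists of named genes were not used, because the table holds no gene names. Levels are not compared between transcripts, since no lengths are given. Plots were drawn with matplotlib 3.10.9.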

Additional observations from a re-analysis of the deposited data

How the results depend on the processing

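The count of transcripts called, 0 in edgeR's quasi-likelihood test, was 25 with DESeq2, 6 with edgeR's exact test, 9 with the exact test without robust dispersion and 1 without control replicate 2, and the count of genes called was 21 with DESeq2 and 5 with the exact test. Under the other settings both counts were 0, including a range of 0 to 0 when each sustained and acute library was left out in turn. Leaving these out moved the number at an unadjusted p under 0.05 between 1369 and 3149, and it was 4119 without control replicate 2 and acute replicate 3. No direction of a named transcript or gene reversed, which their choice by p makes likely. The 3 reversals were of 1 isoform whose relative log2 difference of -0.04 became 0.05 without sustained replicate 2, 0.01 without acute replicate 3 and 0.01 without control replicate 2 and acute replicate 3; it ran from -0.18 to 0.05 as single libraries were left out. The cause of these changes was not tested. No paired analysis was possible because the labels and the table's columns carry no replicate numbers that link a sustained vessel to an acute one. The rarer transcripts were measured least tightly. The 95% interval was within 2-fold for 1.41% of transcripts under 1 CPM and for 83.3% at 100 CPM or more. The part of sequencing depth in this was not tested.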
